A study of Mus musculus with 3 samples.

Results

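A set of 31 genes of sterol and fatty acid synthesis was followed in single-nucleus RNA-seq of mouse abdominal aorta. The set was fixed by gene symbol and held 18 enzymes of sterol synthesis, 6 regulators or carriers of sterols and 7 fatty acid genes, and all 31 were found among 33696 features. All animals were ApoE-/- mice on the C57Bl/6 background fed a high fat diet, and the exposures lasted 20 weeks. The 3 libraries were 1 of room air animals, 1 of cigarette smoke animals without an abdominal aortic aneurysm, and 1 of cigarette smoke animals with an aneurysm, named here room air, smoke and aneurysm. Loss of apolipoprotein E, which raises plasma lipids, and the diet were thus shared by the controls. The sources used here do not give age, sex or the number of animals behind each library. With 1 library per group there is no replicate check, no test between conditions was possible, and a difference between conditions means one between single libraries throughout.

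The deposited matrices held 13189 barcodes with room air, 14859 with smoke and 7348 with aneurysm, and 11022, 14001 and 5707 nuclei were kept. Median unique molecular identifiers (UMIs, counts of distinct RNA molecules) per nucleus were 4058.5, 6225 and 1443, so the aneurysm library was the shallowest. Between 17 and 36 barcodes were shared by any pair of libraries. Reads of the disrupted Apoe gene gave 4.84, 6.56 and 7.74 CPM (UMIs of a gene per 1e+06 UMIs of the class) in macrophage-like nuclei, and whether they lie inside the disrupted part cannot be told from these tables. Nuclei were clustered without the 31 genes and 35 other genes of the same pathways, so none of these 66 defined a cluster, and clusters were named from marker genes. Macrophage-like nuclei numbered 4909 with room air, 6044 with smoke and 729 with aneurysm, endothelial-like 1895, 2128 and 1017, fibroblast-like 479, 648 and 725, and smooth muscle-like 392, 477 and 134. Adipocyte-like nuclei numbered 36, 210 and 1236, or 0.327%, 1.5% and 21.7% of the nuclei of each library. Unnamed clusters held 2009, 2386 and 1669 nuclei. Among them, clusters 8, 12 and 15, with 1114, 2768 and 328 nuclei, also scored highest for smooth muscle markers, so the smooth muscle-like class does not hold all nuclei with such markers. The largest macrophage-like cluster differed by library, with 1665 of 4909 nuclei in cluster 4 with room air, 1624 of 6044 in cluster 16, led by Adgre4, with smoke, and 334 of 729 in cluster 18, led by Cd163 and F13a1, with aneurysm. The make-up of the endothelial-like class also differed. Cluster 11 held 70, 178 and 362 of its nuclei with room air, smoke and aneurysm, and cluster 3 held 328, 543 and 31. Ratios between libraries in these classes therefore compare different mixes of clusters.

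Cells make cholesterol from acetyl-CoA through mevalonate, squalene and lanosterol, and make saturated and monounsaturated fatty acids from the same precursor. SREBP-2, encoded by Srebf2, drives the sterol enzymes when membrane sterol is low. Its relative SREBP-1, encoded by Srebf1, drives the fatty acid enzymes in response to insulin. Both are escorted to their processing site by the Scap protein and held back by the Insig proteins. In the aortic wall, macrophages take up and esterify lipoprotein cholesterol, and the fat around the vessel makes fatty acids and triglyceride.

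The sequences upstream of 4 genes are shown as examples of the branches: Hmgcs1 and Cyp51 for sterol enzymes, Insig1 for the sterol-controlled regulators and Fasn for fatty acids. Each is the 250 bases before the RefSeq transcription start on GRCm38.p6, on the strand of the gene, 5′ to 3′. Capitals mark matches on either strand to TCACNCCAC (a form of the sterol response element), CACGTG (the E-box) or CCAAT, which reads ATTGG on the other strand. The Hmgcs1 stretch lies at chr13:119690101-119690350 on the plus strand, Insig1 at chr5:28071162-28071411 on the plus strand, Cyp51 at chr5:4104698-4104947 on the minus strand and Fasn at chr11:120824548-120824797 on the minus strand.
Hmgcs1: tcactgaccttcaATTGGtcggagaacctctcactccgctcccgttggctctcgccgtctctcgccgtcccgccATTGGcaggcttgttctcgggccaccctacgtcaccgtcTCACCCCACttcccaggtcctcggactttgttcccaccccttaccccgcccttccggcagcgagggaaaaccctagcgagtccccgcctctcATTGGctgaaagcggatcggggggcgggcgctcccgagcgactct
Insig1: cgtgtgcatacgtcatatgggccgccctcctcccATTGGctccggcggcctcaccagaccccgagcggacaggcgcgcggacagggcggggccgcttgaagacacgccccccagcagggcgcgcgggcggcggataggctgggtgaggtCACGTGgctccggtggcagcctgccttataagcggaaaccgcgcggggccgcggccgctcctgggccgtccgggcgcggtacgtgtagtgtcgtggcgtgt
Cyp51: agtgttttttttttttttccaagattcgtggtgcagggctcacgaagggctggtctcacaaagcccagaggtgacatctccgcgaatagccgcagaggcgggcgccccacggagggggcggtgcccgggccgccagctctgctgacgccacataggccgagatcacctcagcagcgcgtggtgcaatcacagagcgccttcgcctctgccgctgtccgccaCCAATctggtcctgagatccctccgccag
Fasn: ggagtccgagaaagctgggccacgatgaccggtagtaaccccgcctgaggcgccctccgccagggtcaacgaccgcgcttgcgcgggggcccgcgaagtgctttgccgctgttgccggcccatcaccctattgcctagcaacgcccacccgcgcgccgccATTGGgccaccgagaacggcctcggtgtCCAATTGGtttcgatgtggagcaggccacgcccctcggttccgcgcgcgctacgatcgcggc

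The Hmgcs1 sequence held TCACCCCAC beginning 137 bases before the start, with ATTGG at 237, 176 and 45 bases. In Insig1, ATTGG lay 216 bases before the start and CACGTG lay between it and the start. Cyp51 had 1 match, CCAAT at 29 bases. Fasn held ATTGG at 90 and 59 bases and CCAAT at 62 bases, and the last pair overlap. The RefSeq table had promoters for 25 of the 31 genes, and matches were counted from 250 bases before to 50 bases after each start. TCACNCCAC was present in 1 of these 25 genes (4%), Hmgcs1, against 1.44% of all 27025 genes of the table. CACGTG was present in 5 of 25 (20%) against 8.09%. CCAAT was present in 21 of 25 (84%) against 41.1%, and in 14 of the 15 sterol enzymes with a promoter. These are matches of letters within 1 window, with no measure of binding.

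For each class, the UMIs of a gene were added up and divided by all UMIs of the class, so the levels are CPM of nuclear RNA. Intervals are exact 95% intervals and cover counting error only. Comparisons are ratios of CPM, given where both sides together had at least 20 UMIs and each side at least 50 nuclei. A gene is called higher or lower where the ratio was at least 1.5 either way and its interval left out 1. Long genes collect more nuclear UMIs, so levels of different genes are not compared.

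Both branches had their highest levels in adipocyte-like nuclei. In the aneurysm library, 24 of the 31 genes were highest in that class among the 6 named classes with enough nuclei. For 18 of them the interval of the ratio to the next class lay above 1. In the smoke library the numbers were 18 and 14 among 9 named classes, so the 2 libraries are not alike in this count. The same count was not made over all features, so the shares called against other nuclei, given next, are the measure beside all features. Against the other nuclei of the aneurysm library, 7 of 7 fatty acid genes and 16 of 18 sterol enzymes were called higher and 0 lower, where 19.5% of all features tested were called higher and 35.3% lower. Against the other nuclei of the smoke library, 7 of 7 and 14 of 18 were called higher, with 17.8% of all features higher and 24.3% lower. The median log2 ratio in the aneurysm library was 5.33 for the fatty acid genes and 2.28 for the sterol enzymes, beside −0.32 over all features. Of the regulators and carriers, 2 of 5 were called higher in the aneurysm library and 2 of 6 in the smoke library, and in both they were Insig1 and Srebf2.

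Among the fatty acid genes, Acaca, which encodes the acetyl-CoA carboxylase that makes malonyl-CoA, stood at 1852 CPM with room air, 4986 with smoke and 12639.6 with aneurysm in adipocyte-like nuclei. Acly, the enzyme that releases acetyl-CoA from citrate, stood at 67.9, 575 and 2449 CPM. Fasn, the synthase that builds palmitate, stood at 204, 403 and 1488 CPM. These 3 genes had the same order of libraries, with room air the lowest, although the room air values come from only 36 nuclei and no ratio was taken against them. Of these nuclei, 32 were in cluster 20 and 4 in cluster 21, against 103 and 107 with smoke and 652 and 584 with aneurysm. The clusters differed in these genes, as given below, and their part in the order was not tested. Elovl6, which lengthens palmitate, stood at 95.1, 732 and 1954 CPM. Scd1, the desaturase that makes oleate, did not follow that order, at 2237, 1929 and 3306 CPM. Scd2, a desaturase of wider distribution, stood at 58.9, 108 and 307 CPM, and Srebf1 at 208, 217 and 528 CPM. The plot of fatty acid genes by class and library shows the gap between this class and the rest.

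**Figure D1:**
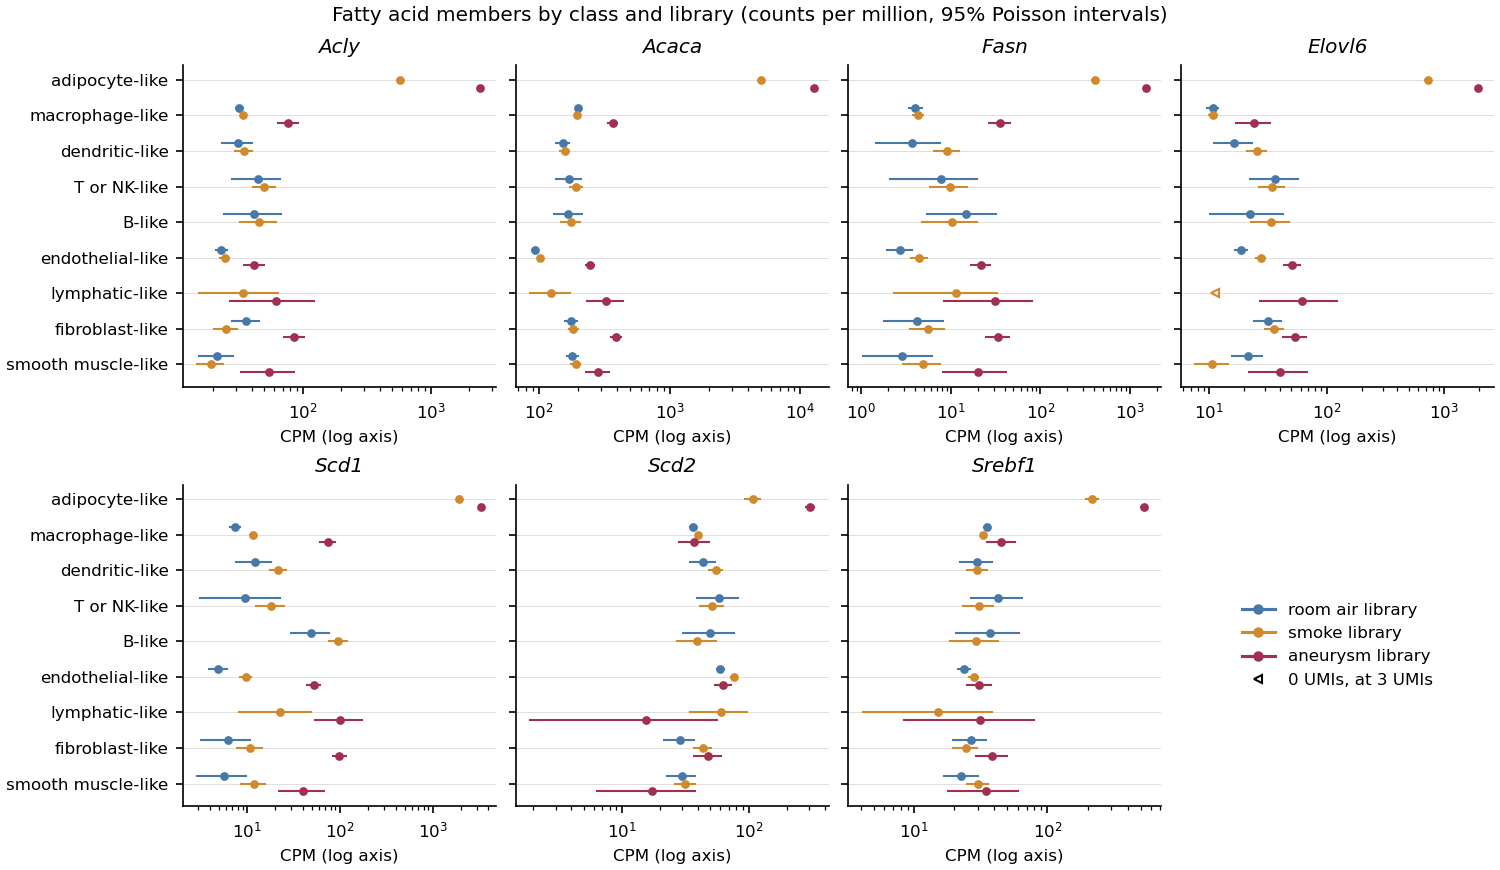
CPM (log axis) of the 7 fatty acid genes by cell class, with points for the 3 libraries and exact 95% Poisson bars. With smoke and aneurysm, adipocyte-like nuclei sit above every other class, for example 1488 CPM of Fasn with aneurysm against 35.5 in macrophage-like nuclei.

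Scd1 was 153-fold higher in adipocyte-like nuclei than in the other nuclei of the smoke library (interval 144 to 163) and 44.4-fold higher in the aneurysm library (41.2 to 47.8). Fasn was 78.7-fold higher in the smoke library and 46.6-fold higher in the aneurysm library. Both ratios were smaller in the aneurysm library although the adipocyte-like level was higher there, and adipocyte marker genes were also higher in the other nuclei of that library, as given below. Acaca was 27.4-fold and 34.9-fold higher, Elovl6 36.6-fold and 40.1-fold, and Acly 19.2-fold and 40.4-fold. Srebf1 was 7.12-fold and 14.7-fold higher. Scd2 had the smallest gap of the 7, at 2.22-fold and 6.10-fold.

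On the sterol side the differences between classes were smaller. Hmgcs1, the synthase that makes HMG-CoA, stood at 217 CPM with room air, 102 with smoke and 105 with aneurysm in adipocyte-like nuclei, and was 9.49-fold higher there than in the other nuclei of the smoke library (8.13 to 11) and 8.49-fold in the aneurysm library (6.83 to 10.6). Fdft1, which joins farnesyl units into squalene, stood at 49.8, 32.8 and 59.5 CPM, and was 3.43-fold and 4.57-fold higher than in other nuclei. Sqle, which oxidises squalene, had 0 UMIs with room air, which allows up to 13.6 CPM, then 6.66 and 10.3 CPM, and was 6.31-fold and 7.04-fold higher. The widest sterol enzyme gaps were those of Acat2, the thiolase that opens the pathway, at 16.9-fold and 12.9-fold, and of Sc5d, a late desaturase, at 11.9-fold and 13-fold. Nsdhl, a demethylation enzyme, was 6.12-fold and 8.81-fold higher.

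Insig1, which encodes the sterol-responsive anchor of the SREBP proteins and whose promoter is shown above, was the sterol gene most set apart in this class. It stood at 289.8 CPM with room air, 225 with smoke and 297 with aneurysm, and was 22.5-fold and 22.8-fold higher than in other nuclei. Its relative Insig2 stood at 63.4, 27.6 and 29.9 CPM. Srebf2 stood at 45.3, 48.1 and 73.0 CPM and was 1.58-fold and 3.19-fold higher than in other nuclei, a smaller gap than that of Srebf1 in both libraries.

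**Figure D2:**
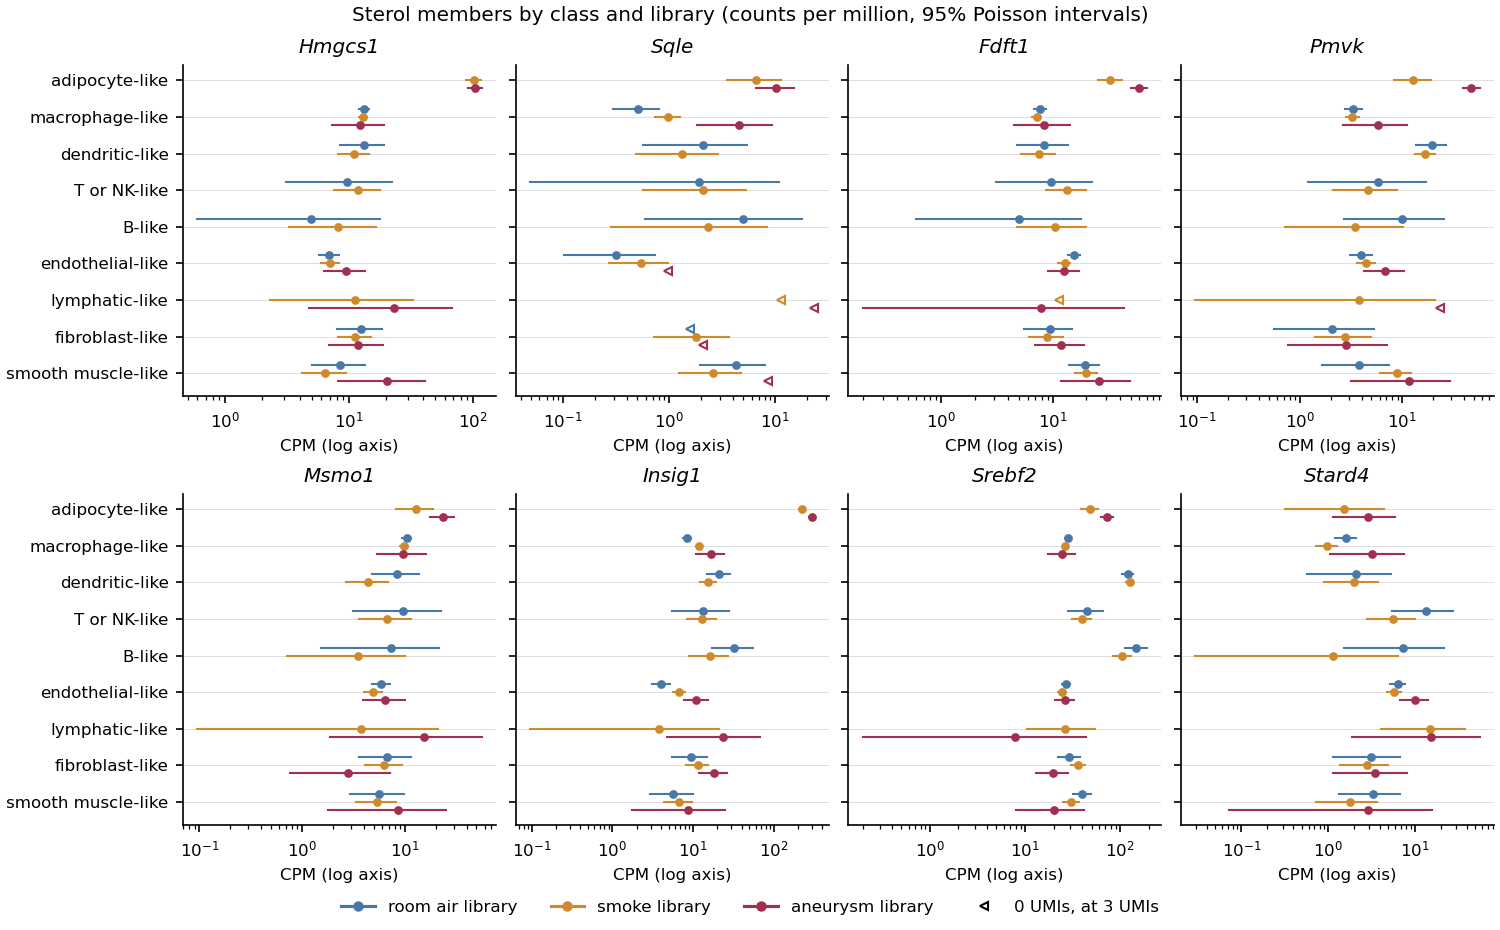
CPM (log axis) of 8 sterol genes by cell class, with points for the 3 libraries and exact 95% Poisson bars. Insig1 and Hmgcs1 are highest in adipocyte-like nuclei, Srebf2 reaches 148 CPM in B-like nuclei with room air, and most sterol enzymes stay under 20 CPM in the remaining classes.

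Adipocyte-like nuclei with aneurysm had more of both branches than those with smoke, with a larger shift in the fatty acid genes. All 7 fatty acid genes and 8 of the 16 sterol enzymes measured were called higher and 1 sterol enzyme lower, where 10.8% of all features were called higher and 20.3% lower. Among those called higher, Cyp51, Mvd, Fdft1, Fdps and Srebf1 are overlapped by other annotated genes, so their levels are uncertain, as given below. The median log2 ratio was 1.42 for the fatty acid genes and 0.86 for the sterol enzymes, beside −0.11 over all features. Acly was 4.26-fold higher (3.99 to 4.54), Fasn 3.69-fold (3.42 to 3.99), Scd2 2.84-fold (2.43 to 3.32) and Elovl6 2.67-fold (2.51 to 2.83). Acaca was 2.54-fold higher (2.48 to 2.59), Srebf1 2.44-fold (2.18 to 2.73) and Scd1 1.71-fold (1.65 to 1.78). The general adipocyte genes Adipoq and Plin1 stood at 93.7 and 507 CPM with smoke and at 112 and 637 CPM with aneurysm.

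In the class as a whole, the sterol enzymes called higher ran from Acat2, at the first step, to Msmo1, though not every step between was called. None of the steps after Msmo1 was called higher there. In cluster 20, described below, the later enzymes Nsdhl, at 2.31-fold, and Sc5d, from 23 UMIs with smoke and 145 with aneurysm, were called higher. In cluster 21 Nsdhl was called lower, at 0.438 of the smoke level. Over the whole class, Lss, which closes the ring to lanosterol, went from 8.19 CPM with smoke to 32.4 with aneurysm, 3.96-fold (2.29 to 7.25). Pmvk and Mvd, consecutive enzymes of the mevalonate steps, were 3.68-fold (2.37 to 5.93) and 3.74-fold (1.52 to 11) higher. Cyp51, the lanosterol demethylase, went from 9.22 to 31.2 CPM, 3.38-fold (2.00 to 6.01). Fdps, the farnesyl diphosphate synthase, was 3.04-fold higher (1.49 to 6.85), Msmo1, a methyl oxidase, 1.83-fold (1.12 to 3.05), Fdft1 1.81-fold (1.34 to 2.48) and Acat2 1.70-fold (1.35 to 2.15). Dhcr7, a late sterol reductase, was lower at 0.417 of the smoke level (0.196 to 0.846). Hmgcs1 was not called, with nearly equal levels. Srebf2 was 1.52-fold higher (1.17 to 1.97) and was the 1 gene called of 4 regulators and carriers measured.

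The sterol calls rest on few UMIs. When nuclei under 1000 UMIs were left out and the rest thinned to 1000, 2 of 9 sterol enzymes measured were called higher. Thinning thus changed the nuclei compared as well as the depth. The median log2 ratio over all the alternatives tried lay between 0.48 and 0.98. Median UMIs per adipocyte-like nucleus were 8001.5 with smoke and 1453 with aneurysm. Summed macrophage markers in adipocyte-like nuclei stood at 1136 CPM with smoke and 298 with aneurysm. Without the nuclei rich in these markers, which left 177 of 210 and 833 of 1236 nuclei, 7 of 7 fatty acid genes and 9 of 14 sterol enzymes were called higher, and the median log2 ratios were 1.32 and 0.76. A nucleus counted as rich where its marker share was above the median of all nuclei of its own library. The cut therefore differed between the libraries, so this filter does not even out macrophage RNA between smoke and aneurysm.

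The class was made of 2 clusters, which differed in these genes. Cluster 20, led by Car3, Cidec and Retn, the last of which encodes a hormone of white fat, held 32, 103 and 652 nuclei with room air, smoke and aneurysm. Cluster 21, led by Ucp1 and Cidea, genes of thermogenic fat, held 4, 107 and 584. In cluster 20, 7 of 7 fatty acid genes and 10 of 11 sterol enzymes measured were called higher with aneurysm and 0 lower, where 12.9% of all features were called higher and 19.4% lower. In cluster 21, 6 of 7 fatty acid genes were called higher but only 1 of 11 sterol enzymes, with 1 lower, where 9.94% of all features were higher and 17.1% lower. The median log2 ratio of the sterol enzymes was 1.96 in cluster 20 and −0.29 in cluster 21, beside −0.05 and −0.12 over all features. For the fatty acid genes it was 2.49 and 0.91. Thinning left 2 of 7 sterol enzymes called in cluster 20, and the difference between the clusters was not tested.

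In cluster 20, Elovl6 went from 76.2 CPM with smoke to 1479 with aneurysm, 19.4-fold (15.2 to 25.2). Acly went from 212 to 3108 CPM, 14.6-fold (12.6 to 17.0). Fasn went from 282 to 1710.0 CPM, 6.07-fold (5.32 to 6.95). These ratios were several times larger than those of the desaturase Scd1, which went from 2669 to 4007 CPM, 1.5-fold (1.43 to 1.58), and was no longer called without the nuclei of highest doublet score (log2 ratio 0.31). Acaca went from 2553 to 14374 CPM, 5.63-fold (5.39 to 5.89). Scd2 was 4.18-fold higher (3.26 to 5.42) and Srebf1 1.92-fold (1.69 to 2.19). The sterol enzymes Lss and Cyp51 had 3 UMIs each in the smoke nuclei of this cluster, and their ratios were 10.8 (3.53 to 54.2) and 10.1 (3.27 to 50.5). Acat2, with 26 UMIs against 188, was 4.13-fold higher (2.73 to 6.49) and Fdft1 2.36-fold (1.57 to 3.64). Hmgcs1 at 106 and 119 CPM and Insig1 at 285 and 419 CPM were not called. Adipocyte genes of this cluster stood at 169 and 162 CPM for Adipoq, 449 and 647 for Plin1 and 117 and 201 for Retn with smoke and aneurysm. The genes that lead cluster 21 were also higher with aneurysm in cluster 20, Ucp1 at 4.62 and 42.2 CPM and Cidea at 48.5 and 231 CPM, and the macrophage gene Gpnmb was lower, at 916 and 54.1 CPM. Without the nuclei rich in macrophage markers, 6 of 7 fatty acid genes and 8 of 10 sterol enzymes were called higher in cluster 20, and the log2 ratio of Scd1 was 0.35. The part of the thermogenic genes in these ratios was not tested.

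In cluster 21 the ratios were smaller and lay closer together. Srebf1 went from 109 CPM with smoke to 282 with aneurysm, 2.60-fold (2.08 to 3.26). Fasn went from 499 to 1122 CPM, 2.25-fold (2.02 to 2.50), and Elovl6 from 1255 to 2736 CPM, 2.18-fold (2.04 to 2.33). Scd2, Scd1 and Acly were 1.88-fold, 1.61-fold and 1.58-fold higher, and Acaca, at 6924 and 9784 CPM, was not called. Without the nuclei rich in macrophage markers 4 of 7 fatty acid genes were called, and the log2 ratio of Scd1 was 0.58, short of a call. Pmvk was the sterol enzyme called higher, 3.01-fold (1.71 to 5.52), and Nsdhl the 1 called lower, at 0.438 of the smoke level (0.268 to 0.696). Insig1 was called lower, at 178 and 96.6 CPM, a ratio of 0.544 (0.418 to 0.703). Hmgcs1 at 99.3 and 81.4 CPM, Fdft1 at 31.3 and 22.8 CPM, Sqle at 12 and 10.9 CPM and Srebf2 at 46.9 and 62.9 CPM were not called.

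**Figure D3:**
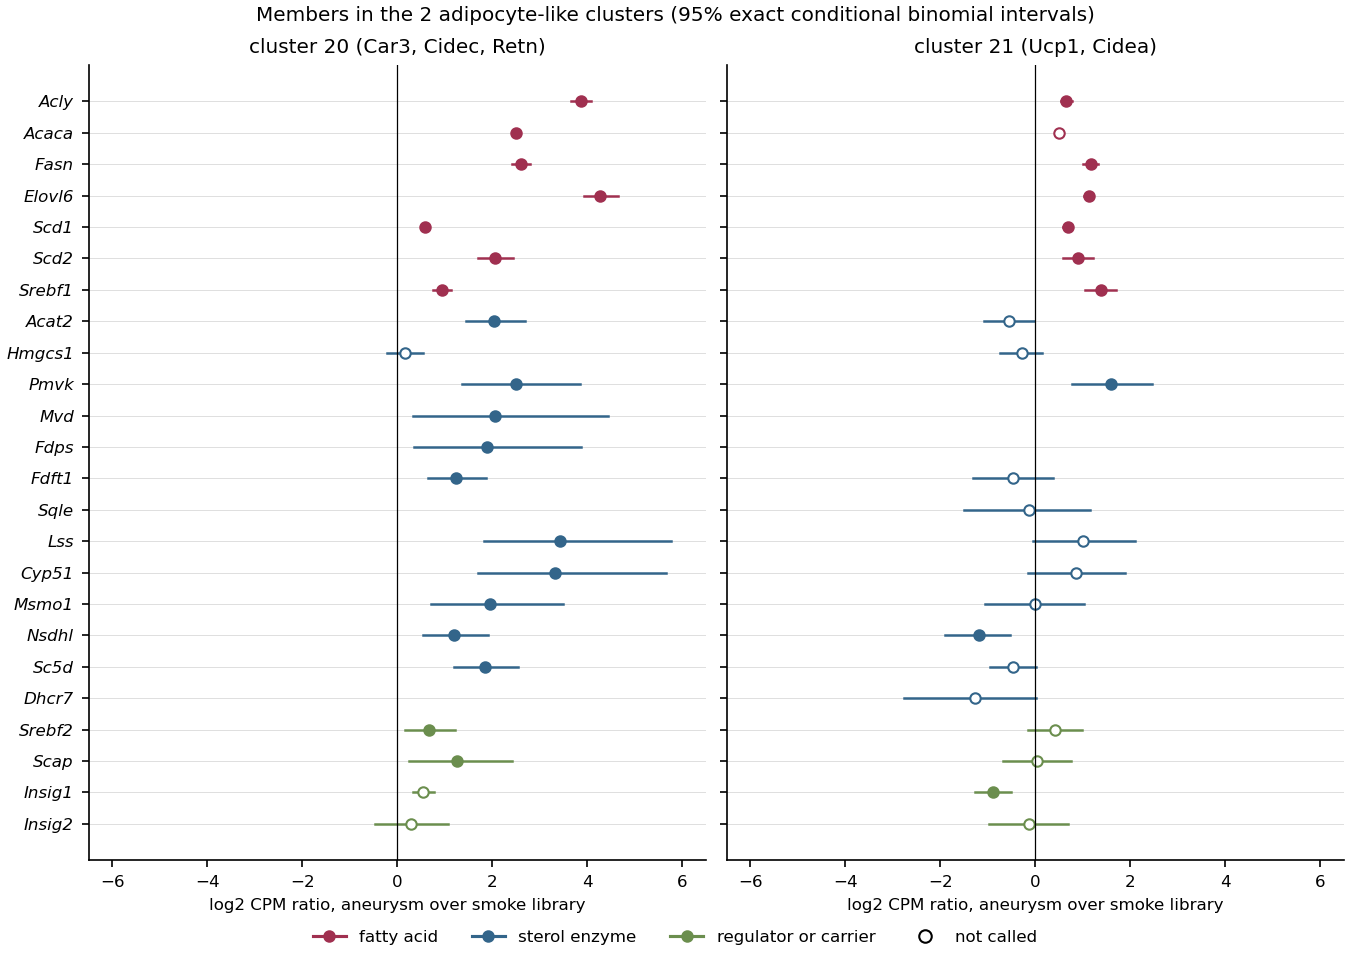
Log2 CPM ratio of aneurysm over smoke for the genes measured in cluster 20 and cluster 21, with exact 95% intervals and filled points for genes called. Sterol enzymes lie mostly right of 0 in cluster 20 (median 1.96) and around 0 in cluster 21 (median −0.29), while the fatty acid genes lie right of 0 in both.

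For some genes the order of the clusters differed between the libraries. In the smoke library, cluster 21 was higher than cluster 20 for 5 of 7 fatty acid genes and lower for 2, where 16.6% of all features were called higher and 12.9% lower. Elovl6 was 16.5-fold higher in cluster 21 (12.9 to 21.4), Acly 4.07-fold and Acaca 2.71-fold, while Srebf1 and Scd1 stood at 0.308 and 0.501 of the level in cluster 20. In the aneurysm library, cluster 21 was higher for 1 of 7, Elovl6 at 1.85-fold (1.75 to 1.96), and lower for 4, where 13.9% of all features were called higher and 10.5% lower. Acly stood at 0.439 there, Srebf1 at 0.416, Scd1 at 0.537 and Fasn at 0.656 of the level in cluster 20. Of the sterol enzymes, 4 of 8 were higher in cluster 21 with smoke and 0 of 13 with aneurysm, where 3 were lower. Insig1 was lower in cluster 21 in both libraries, at 0.623 (0.513 to 0.755) and 0.231 (0.183 to 0.288).

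In adipocyte-like nuclei, of 22 other genes of fatty acid and glyceride synthesis, 17 were measured, and 12 were called higher with aneurysm and 0 lower, beside 10.8% and 20.3% of all features. Elovl3, an elongase of brown fat, went from 9.22 to 69.3 CPM, 7.52-fold (4.62 to 13). Me1, the malic enzyme that supplies NADPH, went from 660.4 to 2590.2 CPM, 3.92-fold (3.69 to 4.17), and Elovl5, an elongase of polyunsaturated fatty acids, was 3.67-fold higher (3.25 to 4.15). Of 13 other sterol genes, 12 were measured, 0 were called higher and 3 lower, a share near that of all features called lower. Soat1, which esterifies cholesterol for storage and is abundant in macrophages, went from 82.4 to 16.4 CPM, 0.199 of the smoke level (0.137 to 0.283), in the nuclei whose macrophage markers also stood lower.

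Between smoke and room air, few of the 31 genes differed in the classes with enough nuclei in both libraries. In macrophage-like nuclei, 2 of 31 were called higher and 1 lower, where 7.24% of all features were called higher and 2.99% lower. Scd1 stood at 7.45 CPM with room air and 11.6 with smoke, 1.55-fold (1.34 to 1.80). Sqle stood at 0.505 and 0.970 CPM, 1.92-fold (1.10 to 3.53), from 17 and 55 UMIs. Stard4, a soluble sterol carrier, was at 0.605 of the room air level (0.408 to 0.898). The share called was close to that of all features. Hmgcs1 stood at 13.3 and 13.1 CPM, Fdft1 at 7.72 and 7.20, Srebf2 at 28.3 and 26.2, Insig1 at 8.43 and 11.8, Fasn at 4.04 and 4.34, and Acaca at 199.6 and 195 CPM, none of them called. Scd2 at 36.3 and 40.2 CPM and Srebf1 at 35.4 and 33.0 CPM were not called either.

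In endothelial-like nuclei, 3 of 30 genes were called higher with smoke and 1 lower, where 10.6% of all features were called higher and 1.99% lower. Scd1 stood at 4.93 and 9.75 CPM, 1.98-fold (1.52 to 2.61), Insig1 at 4.04 and 6.68 CPM, 1.65-fold (1.22 to 2.26), and Fasn at 2.72 and 4.45 CPM, 1.64-fold (1.13 to 2.42). Tm7sf2, a sterol reductase, was the gene called lower, at 0.592 (0.368 to 0.945). In these nuclei the summed adipocyte markers stood at 11.4 CPM with room air and 19.1 with smoke, and the adipocyte-like level scaled by these markers was taken off both libraries. With 11 markers the log2 ratio of Fasn was −0.19 and that of Insig1 0.67, and 0 of the 6 fatty acid genes still measured were called higher. With 8 markers, leaving out Plin4, Lipe and Aqp7, which are also expressed outside fat, it was 0.61 for Fasn, 0.71 for Insig1 and 0.94 for Scd1, and 2 fatty acid genes were called. Srebf2 at 26.7 and 24.5 CPM, Hmgcs1 at 6.95 and 7.08 CPM, and Fdft1 at 15.6 and 12.8 CPM were not called.

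Fibroblast-like and smooth muscle-like nuclei had smaller counts. In fibroblast-like nuclei, 2 of 22 genes were called higher with smoke and 0 lower, where 8.93% of all features were called higher and 2.53% lower. They were Cyp51, 2.68-fold (1.11 to 7.83), with 8 of its 33 smoke UMIs in 1 nucleus, and Scd2, 1.52-fold (1.11 to 2.09). In smooth muscle-like nuclei, 3 of 22 were called higher and 1 lower, where 7.74% of all features were called higher and 3.04% lower. Pmvk was 2.32-fold higher (1.06 to 5.81) and Fdps, with 1 UMI against 19, 10.4-fold (1.65 to 432). Scd1 was 2.10-fold higher (1.09 to 4.35), with 12 of its 46 smoke UMIs in 1 nucleus, and Elovl6 stood at 0.498 of the room air level (0.318 to 0.778).

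Between aneurysm and smoke, fatty acid genes were higher in each of the 4 other large classes while most sterol enzymes were not called. These ratios share the smoke library with those against room air. Few UMIs limited the sterol calls. With aneurysm, 14 of 18 sterol enzymes had under 10 UMIs in macrophage-like, 8 in endothelial-like, 15 in fibroblast-like and 18 in smooth muscle-like nuclei. In macrophage-like nuclei, 5 of 7 fatty acid genes and 2 of 18 sterol enzymes were called higher and 0 lower, where 14.2% of all features were called higher and 8.11% lower. The median log2 ratio was 1.13 for the fatty acid genes and 0.13 for the sterol enzymes, beside 0.05 over all features. In endothelial-like nuclei, 5 of 7 and 2 of 16 were called higher and 1 sterol enzyme lower, where 8.44% of all features were called higher and 11.9% lower. In fibroblast-like nuclei, 6 of 7 and 0 of 8 were called higher, where 10.3% of all features were called higher and 13.6% lower. In smooth muscle-like nuclei, 4 of 7 and 2 of 11 were called higher, where 6.89% of all features were called higher and 7.06% lower. The medians for the fatty acid genes were 0.88, 1.08 and 1.52 in these 3 classes, and for the sterol enzymes 0.20, −0.47 and 0.39.

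**Figure D4:**
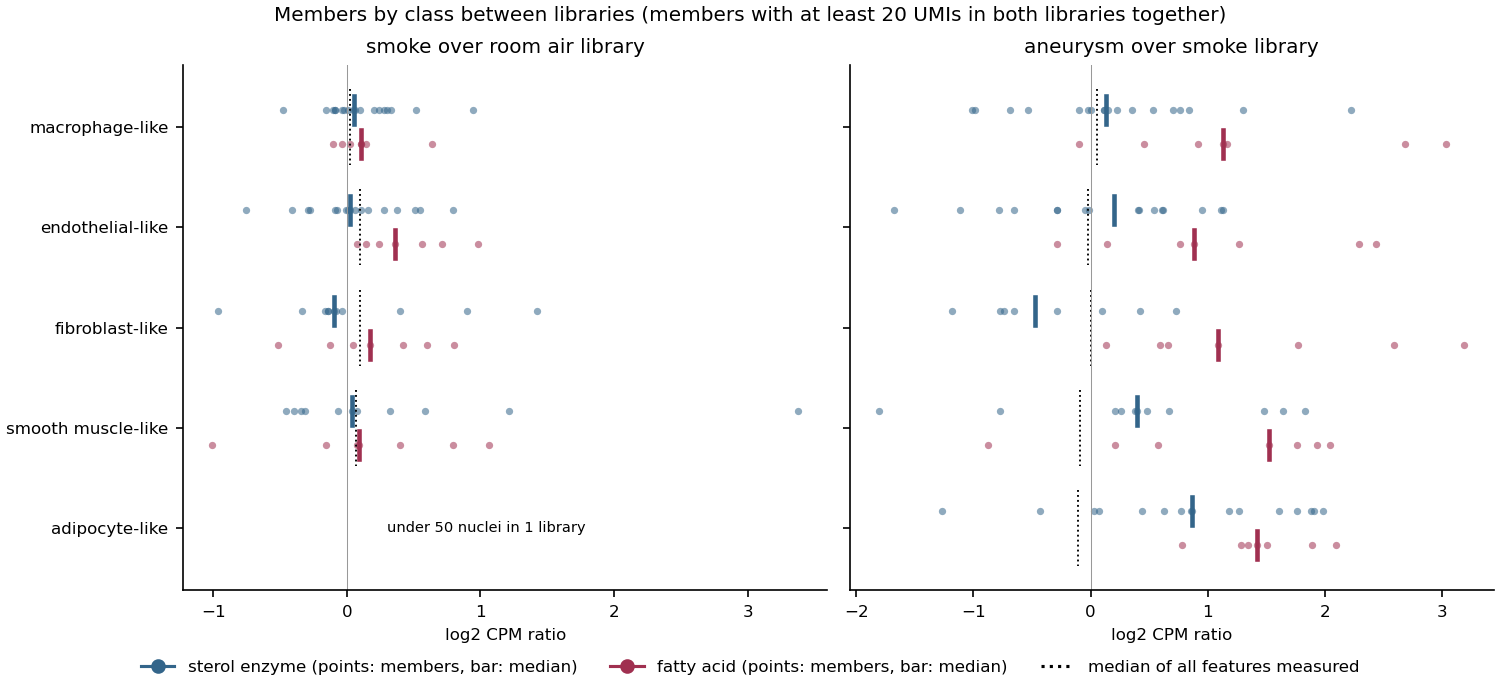
Log2 CPM ratios of sterol enzymes and fatty acid genes in each class, for smoke over room air and aneurysm over smoke, with points for genes, bars for medians and a dotted line for the median of all features. Fatty acid medians with aneurysm lie between 0.88 and 1.52 in all 5 classes and sterol medians between −0.47 and 0.86.

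Scd1 and Fasn had the largest ratios of the fatty acid genes in 3 of these 4 classes. Scd1 in macrophage-like nuclei stood at 7.45 CPM with room air, 11.6 with smoke and 74.2 with aneurysm, and the ratio to smoke was 6.41 (5.21 to 7.83). In endothelial-like nuclei it stood at 4.93, 9.75 and 52.6 CPM, 5.39-fold (4.35 to 6.67). In fibroblast-like nuclei it stood at 6.24, 10.9 and 99.4 CPM, 9.12-fold (6.44 to 13.1), with 32 of 142 aneurysm UMIs in 1 nucleus. In all 3 classes the aneurysm library stood apart and the room air library was the lowest. In smooth muscle-like nuclei it stood at 5.67, 11.9 and 40.3 CPM, 3.39-fold (1.72 to 6.28).

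Fasn in macrophage-like nuclei stood at 4.04, 4.34 and 35.5 CPM with room air, smoke and aneurysm, and the ratio to smoke was 8.18 (5.99 to 11). In endothelial-like nuclei it stood at 2.72, 4.45 and 21.8 CPM, 4.88-fold (3.51 to 6.78), and in fibroblast-like nuclei at 4.16, 5.58 and 33.6 CPM, 6.02-fold (3.57 to 10.5). In smooth muscle-like nuclei it stood at 2.83, 4.91 and 20.2 CPM, and the ratio of 4.11 (1.46 to 10.2) rested on 7 aneurysm UMIs. Acaca was less shifted, with 199.6, 195 and 368 CPM in macrophage-like, 92.9, 103 and 248 CPM in endothelial-like and 178, 184 and 389.9 CPM in fibroblast-like nuclei. Its ratios to smoke were 1.89 (1.73 to 2.05), 2.41 (2.21 to 2.62) and 2.12 (1.89 to 2.37). Acly was between 1.70-fold and 3.4-fold higher, and Elovl6 between 1.51-fold and 3.81-fold, in the 4 classes. Scd2 was not called in any of the 4, and Srebf1 was called only in fibroblast-like nuclei, at 24.3 and 38.5 CPM, 1.58-fold (1.11 to 2.23). In macrophage-like nuclei Scd2 stood at 40.2 and 37.4 CPM and Srebf1 at 33.0 and 45.2 CPM. In endothelial-like nuclei Scd2 stood at 59.8, 76.9 and 63.0 CPM across the 3 libraries and Srebf1 at 23.7, 28.0 and 30.8 CPM. In fibroblast-like nuclei Scd2 stood at 28.6, 43.4 and 47.6 CPM. The smooth muscle-like levels of Acaca were 181, 191 and 285 CPM, of Scd2 29.8, 31.8 and 17.3 CPM, and of Srebf1 22.7, 29.95 and 34.6 CPM, none of them called. The macrophage-like cluster led by F13a1, which held more of the class with aneurysm than any other cluster, also had its highest values with aneurysm, with Acaca at 89.8, 117 and 335 CPM, Fasn at 6.91, 4.95 and 37.4 CPM and Scd1 at 3.46, 7.92 and 85.4 CPM. The first 2 libraries had 8 or fewer UMIs of Fasn and Scd1 in that cluster.

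Adipocyte marker genes were also higher with aneurysm in each of these classes, but their rises did not follow the order of the fatty acid medians. Over 11 markers, the summed level in macrophage-like nuclei was 12.3 CPM with room air, 16.2 with smoke and 80.0 with aneurysm, with UMIs for 10 of the 11 in each library and Lep at 0. It was 11.4, 19.1 and 90.9 CPM in endothelial-like, 13.5, 18.8 and 85.4 in fibroblast-like, and 55.7, 69.2 and 106.6 in smooth muscle-like nuclei. The level was set against that of adipocyte-like nuclei of the same library with and without Plin4, Lipe and Aqp7. In the aneurysm library macrophage-like nuclei held 1.96% of the adipocyte-like level over 11 markers and 1.74% over 8, and endothelial-like nuclei 2.22% and 1.07%. Fibroblast-like nuclei held 2.09% and 1.53%, and smooth muscle-like nuclei 2.60% and 1.17%. With smoke, the shares over 8 markers were 0.115%, 0.128%, 0.222% and 0.692%.

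Multiplying the adipocyte-like level of each gene by these shares gives the level that RNA from adipocytes would leave if it followed the markers. With 8 markers this was 77.6% of the measured Scd1 in macrophage-like nuclei, 73.0% of Fasn, 59.9% of Acaca, 55.6% of Acly and 142% of Elovl6. It was 14.3% of Scd2 and 20.4% of Srebf1, the 2 genes not called there. In endothelial-like nuclei it was 67.2% of Scd1, 73.1% of Fasn and 54.5% of Acaca, and in fibroblast-like nuclei 50.8%, 67.6% and 49.5%. With all 11 markers the endothelial-like values were 139.6%, 152% and 113%. After the scaled level was taken off both libraries, the median log2 ratio of the fatty acid genes with 8 markers was 0.05 in macrophage-like, 0.18 in endothelial-like, 0.36 in fibroblast-like and 0.02 in smooth muscle-like nuclei. With 11 markers it was −0.09, −1.31, 0.12 and −1.77, and 2, 0, 2 and 0 of the genes were still called higher.

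Few sterol genes differed with aneurysm in these classes. In macrophage-like nuclei Sqle stood at 0.505, 0.970 and 4.52 CPM with room air, smoke and aneurysm, 4.66-fold above smoke (1.79 to 10.3) from 7 aneurysm UMIs in 5 nuclei, 3 of them in 1 nucleus. The scaled adipocyte-like level was 3.95% of that value. Acat2 was 2.46-fold higher (1.15 to 4.64) and Stard4 3.33-fold (1.04 to 8.24), from 10 and 5 aneurysm UMIs. Hmgcs1 at 13.1 and 12.3 CPM, Fdft1 at 7.20 and 8.39 CPM, Srebf2 at 26.2 and 24.5 CPM and Insig1 at 11.8 and 16.8 CPM were not called.

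In endothelial-like nuclei Acat2 and Fdps were 2.16-fold (1.32 to 3.43) and 2.19-fold (1.04 to 4.30) higher, Stard4 1.72-fold (1.12 to 2.58) and Insig1 1.65-fold (1.10 to 2.42). Ebp, a sterol isomerase, stood at 0.312 of the smoke level (0.0832 to 0.830) from 4 aneurysm UMIs. Sqle had 0 UMIs there with aneurysm, which allows up to 0.974 CPM, against 0.544 with smoke. Hmgcs1 at 9.42 CPM, Fdft1 at 12.7 CPM and Srebf2 at 26.3 CPM with aneurysm were not called.

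In fibroblast-like nuclei Insig2, the Insig protein under less sterol control, stood at 20.3, 29.2 and 70.7 CPM, 2.42-fold above smoke (1.84 to 3.2), with its aneurysm UMIs spread over 84 nuclei. Srebf2 stood at 29.1, 36.3 and 19.6 CPM there, 0.541 of the smoke level (0.347 to 0.815). Hmgcs1 at 12.5, 11.2 and 11.9 CPM, Fdft1 at 9.36, 8.87 and 11.9 CPM and Insig1 at 9.36, 11.4 and 18.2 CPM were not called. Sqle had UMIs only with smoke, at 1.77 CPM, where 0 UMIs allow up to 1.56 CPM with room air and 2.10 with aneurysm. In smooth muscle-like nuclei Hmgcs1 at 3.12-fold (1.14 to 7.43) and Mvk, the mevalonate kinase, at 3.55-fold (1.28 to 8.60) were called, each from 7 aneurysm UMIs. Hmgcs1 stood at 8.50, 6.46 and 20.2 CPM there. Srebf2 in that class stood at 39.7, 30.5 and 20.2 CPM and Insig1 at 5.67, 6.71 and 8.64 CPM, neither called.

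Between the other classes, single sterol genes differed in both deeper libraries, and the share of all features called stands beside each count. In smooth muscle-like nuclei, 5 of 31 genes were called higher than in the other nuclei with room air, where 12.9% of all features were, and 6 of 31 with smoke, where 14.0% were, and all of them were sterol enzymes. Called lower were 2 with room air, where 24.5% of all features were, and 8 with smoke, where 26.2% were, and 5 of these 8 were fatty acid genes and 2 sterol enzymes. Fdft1 stood at 19.4, 19.9 and 25.9 CPM with room air, smoke and aneurysm and was 1.93-fold (1.37 to 2.65) and 2.07-fold (1.62 to 2.61) above other nuclei with room air and smoke. Sqle was 7.21-fold (3.07 to 15.1) and 2.35-fold (1.10 to 4.47) higher from 9 and 10 UMIs. Cyp51 was 2.71-fold and 1.59-fold higher, and Acat2 1.99-fold and 1.79-fold.

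In dendritic-like nuclei, 5 of 31 were called higher with room air, where 15.5% of all features were, and 5 of 31 with smoke, where 15.4% were. Called lower were 2 and 5, where 22.3% and 25.5% of all features were. Srebf2 stood at 120.4 and 126 CPM, 4.27-fold (3.71 to 4.90) and 4.70-fold (4.29 to 5.14) above other nuclei. Pmvk was 5.45-fold (3.75 to 7.73) and 4.57-fold (3.53 to 5.85) higher, Idi1, the isopentenyl diphosphate isomerase, 4.11-fold and 3.98-fold, and Cyp51 2.69-fold and 2.14-fold. Among the dendritic-like clusters, Srebf2 was highest in the one led by Clec9a and Xcr1, at 223 and 186 CPM, and lowest in the one led by Ccr7 and Il12b, at 77.2 and 84.1 CPM. Pmvk had 0 UMIs with room air in the Clec9a cluster, which allows up to 16.7 CPM, and stood at 9.23 CPM with smoke, against 16.3 and 14.4 CPM in the Ccr7 cluster. The aneurysm library held 13 dendritic-like nuclei, too few to compare.

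In B-like nuclei, 7 of 29 genes were called higher with room air, where 14.7% of all features were, and 4 of 29 with smoke, where 14.1% were. Called lower were 0 and 1, where 13.1% and 13.7% of all features were. Srebf2 stood at 148 and 104 CPM there, 4.93-fold (3.75 to 6.37) and 3.46-fold (2.77 to 4.26) above other nuclei. Scd1 stood at 49.4 and 96.3 CPM, 3.51-fold (2.13 to 5.45) and 2.16-fold (1.72 to 2.69). T or NK-like nuclei had Stard4 at 13.5 and 5.69 CPM and Cyp51 at 21.2 and 7.25 CPM.

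In macrophage-like nuclei, 4 of 31 genes were called higher with room air, where 21.6% of all features were, and 3 of 31 with smoke, where 18.8% were. More were called lower, 7 with room air and 10 with smoke, where 29.4% and 33.3% of all features were. With smoke, 4 of the 10 were fatty acid genes, among them Scd1 at 0.151 (0.139 to 0.163) and Elovl6 at 0.208 (0.190 to 0.227) of the other nuclei, which include the adipocyte-like ones. The 3 called higher in both were Mvd at 2.29-fold and 2.39-fold, Msmo1 at 1.77-fold and 1.79-fold, and Tmem97, a sterol-binding membrane protein, at 2.24-fold and 1.79-fold. Insig1 differed among the macrophage-like clusters, at 23.0 and 25.8 CPM with room air and smoke in the cluster led by Adgre4 and 17.3 and 21.8 CPM in the one led by F13a1, against 4.88 to 13.5 CPM in the other 4. In endothelial-like nuclei, 4 of 31 genes were called higher with room air, where 17.2% of all features were, and 2 of 31 with smoke, where 17.0% were. Called lower were 10 and 11, where 32.4% and 30.7% of all features were, among them Acaca at 0.442 and 0.347 and Insig1 at 0.413 and 0.442 of the other nuclei. Stard4 was 3.60-fold (2.69 to 4.81) and 4.17-fold (3.23 to 5.38) above other nuclei, and Scd2 1.53-fold (1.41 to 1.65) and 1.75-fold (1.65 to 1.85).

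In fibroblast-like nuclei, 2 of 30 genes were called higher with room air, where 13.7% of all features were, and 2 of 31 with smoke, where 14.2% were. Called lower were 2 and 5, where 21.8% and 20.6% of all features were. Hsd17b7, which reduces the ketone at carbon 3 of the sterol and also acts on steroid hormones, was 8.10-fold (4.64 to 13.5) and 3.59-fold (2.13 to 5.73) higher, from 19 and 20 UMIs. Levels of Cyp51, Mvd, Fdft1, Srebf1, Tm7sf2 and Fdps are uncertain, because other annotated genes overlap them and the sources used here do not give whether counting used strand. Reads of Scd1 and Scd2 can also be split with the related genes Scd3 and Scd4. In clusters 21 and 20 with aneurysm, Scd3 had 4 and 0 UMIs and Scd4 had 1 and 5, against 1983 and 6078 of Scd1.

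Outside adipocyte-like nuclei, some of the other fatty acid and glyceride genes were called higher with aneurysm in each class. In macrophage-like nuclei 8 of 20 were called higher and 0 lower, beside 14.2% and 8.11% of all features. In endothelial-like nuclei 8 of 21 were called higher and 1 lower, beside 8.44% and 11.9%. In fibroblast-like nuclei 6 of 16 were called higher and 1 lower, beside 10.3% and 13.6%, and in smooth muscle-like nuclei 4 of 15 and 0, beside 6.89% and 7.06%. Mlxipl, the carbohydrate-responsive factor ChREBP, was 44.9-fold higher in macrophage-like nuclei (28.1 to 72.3) and 53.2-fold in endothelial-like nuclei (26.5 to 121). Me1, Acacb and Thrsp, genes of fat-making tissue, were 17.2-fold, 11.6-fold and 18.3-fold higher in macrophage-like nuclei. These genes were also high in adipocyte-like nuclei, and the marker values given above stand beside them. Soat1 was called lower in each of the 5 large classes, at 0.199 in adipocyte-like, 0.622 in macrophage-like, 0.507 in endothelial-like, 0.506 in fibroblast-like and 0.433 in smooth muscle-like nuclei. Summed macrophage markers were lower alongside it, from 912 CPM with smoke to 337 with aneurysm in endothelial-like, 1131 to 302 in fibroblast-like, 976 to 550.1 in smooth muscle-like and 6242 to 4733 in macrophage-like nuclei, and their part in the Soat1 ratios was not tested. In macrophage-like nuclei Soat1 went from 419 CPM with smoke to 261 with aneurysm.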

How the data were processed

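The deposited matrices hold UMI counts per feature and nuclear barcode, made by the authors with cellranger 8.0.1 per the file headers. STAR, mm10 and Cell Ranger 2.2.0 appear in the submitters' processing notes, so the build is unsettled and no file coordinates are given. Nuclei with at least 500 UMIs, 300 genes and under 5% mitochondrial UMIs were kept and clustered without 66 pathway genes (2000 variable genes, 30 components, 20 neighbours, Leiden resolution 1.0, seed 7). Scrublet called 351, 399 and 1 doublets; it did not work in the aneurysm library and none were removed. Counts were summed by class and library as CPM with exact Poisson intervals, and ratios with exact conditional binomial intervals at 95% confidence; a count of 0 allows up to 3. The ratio script was tested on simulated data. No p-value was computed.

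The members and lists were chosen with earlier results of these data known. Values are given for 10 members whatever their level, and for up to 8 further members called per class and comparison, ranked by the bound nearest 1. Other pathway genes are named by the same ranking. Alternatives were other scalings, depths, cluster settings, doublet scores and subtraction of scaled adipocyte levels. Software was Python 3.11.15, numpy 2.4.6, scipy 1.17.1, pandas 2.3.3, scanpy 1.11.5, R 4.3.3 and edgeR 4.0.16 (scaling factors only).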

Additional observations from a re-analysis of the deposited data

Results flagged for a closer look

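Srebf2 went opposite ways in 2 classes between aneurysm and smoke: the CPM ratio was 1.52 in adipocyte-like nuclei and 0.541 in fibroblast-like nuclei, and both were called. Nsdhl went opposite ways in the 2 adipocyte-like clusters, at 2.31 in cluster 20 and 0.438 in cluster 21. With 1 library per group, neither difference was tested.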

How the results depend on the processing

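No paired analysis was possible because each group has 1 library. Of 770 recomputed medians and counts of gene lists, 668 were labelled the same, 99 moved and 3 reversed. A median was the same if it stayed within its main counting bounds, and a count if it stayed within 1.5-fold. Medians were reversed only if the main ratio was at least 1.5 either way and the sign changed. Smaller medians could change sign without this label, such as the sterol enzymes in fibroblast-like nuclei, aneurysm over smoke (−0.47, up to 0.23 among the alternatives). Of 1687 values of single genes, 1501 kept their sign and stayed within their interval, 165 moved outside it and 21 changed sign. The 1000 to 4000 UMI window, the removal of nuclei rich in macrophage markers, the 8-marker subtraction and the runs on clusters 20 and 21 were chosen after seeing the data. All values here are log2 CPM ratios. For the fatty acid genes in adipocyte-like over other nuclei (5.33), thinning to 1000 UMIs gave 5.11, the UMI window 5.11, trimmed-mean (TMM) scaling 5.60 and median-of-ratios scaling 5.62; TMM moved all genes by 0.27 there. In adipocyte-like nuclei, aneurysm over smoke (1.42), clustering the libraries one by one gave 1.59, leaving out the highest doublet scores 1.17, TMM 1.54 and median of ratios 1.52, with a TMM shift of 0.12 for all genes. In macrophage-like nuclei (1.13) clustering one by one gave 1.44, and in endothelial-like nuclei (0.88) resolution 2 gave 1.26. Subtracting the adipocyte-like level scaled by 11 markers gave −0.0857 in macrophage-like, −1.31 in endothelial-like and −1.77 in smooth muscle-like nuclei, and 8 markers gave 0.0457 and 0.18 in the first 2. For smoke over room air the 11-marker values were 0.0376 in endothelial-like (0.36 before) and −0.21 in macrophage-like nuclei (0.10 before), where thinning gave 0.23 and the UMI window 0.28. Single genes that reversed with 11 markers, aneurysm over smoke, were Acaca (−6.18 endothelial-like, −0.26 fibroblast-like, −0.46 macrophage-like), Acly (−4.4 endothelial-like, −0.0857 macrophage-like), Elovl6 (−1.66, −1.21 and −1.83 in endothelial-like, fibroblast-like and macrophage-like), Fasn (−0.96) and Insig1 (−0.20) in endothelial-like nuclei. For smoke over room air they were Fasn in endothelial-like (−0.19) and Scd1 in macrophage-like nuclei (−0.49). With 8 markers they were Acaca (−0.33) and Elovl6 (−2.35) in macrophage-like, Acly in endothelial-like (−0.63) and Elovl6 in fibroblast-like nuclei (−0.51). Acat2 in macrophage-like nuclei reversed with 15 components (−0.22) and Stard4 there with libraries clustered one by one (−0.79). Stard4 in endothelial-like nuclei reversed when thinned (−0.0358) and in the UMI window (−0.38), and Mvk in smooth muscle-like nuclei at resolution 0.5 (−0.10). The cause of these changes was not tested, and the subtractions take RNA from adipocytes as given. Sterol enzymes called higher with aneurysm were 8 in adipocyte-like nuclei and 10 in cluster 20, but 2 in each after thinning, where fewer were measured. Depth limits the sterol enzymes in the aneurysm library, where 14 of 18 had under 10 UMIs in macrophage-like, 8 in endothelial-like, 15 in fibroblast-like, 18 in smooth muscle-like and 2 in adipocyte-like nuclei.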
